A study of Mus musculus with 6 samples.

Results

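Adipocyte marker genes were followed in quadriceps RNA from 6 mice, 1 Affymetrix expression array per mouse. The list holds 10 genes, chosen for their use in fat cells, and their rows were found by Entrez identifier. A probe set was present for 9 of the 10 (Adipoq, Cfd, Fabp4, Lep, Retn, Cidec, Cidea, Pparg and Car3) among 16492 gene probe sets, and Plin1, the perilipin that coats the large fat droplet, was not analysed here. All 9 passed the filter on dim probe sets. The 3 heterozygous mice carry 1 nebulin allele (nebulin +/-) and the 3 wild-type mice carry 2 (nebulin +/+). The labels list each as a separate animal with no treatment, while their age, strain and sex are given in none of the sources used here. The quadriceps is a large thigh muscle, and the comparison asks whether transcripts of fat differ between the genotypes in it.

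White adipocytes store triglyceride in a single large droplet and secrete hormones, the adipokines, into the blood. The nuclear receptor PPAR gamma and the C/EBP transcription factors drive their differentiation. Skeletal muscle contains some fat cells between its fibres, so a piece of muscle brings a variable amount of fat RNA with it.

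Values are the deposited log2 signals, on which a difference of 1 is a doubling, and all 6 arrays share a single distribution that runs from 5.56 to 14.81, with its median at 7.23. Signals of different probe sets are not compared as amounts, since they depend on the probes. The arrays were of muscle, with skeletal actin Acta1 at 14.81 in every mouse and creatine kinase Ckm between 14.64 and 14.66. Neb measured 12.08, 11.73 and 11.94 in heterozygous mice, against 12.17, 12.09 and 12.16 in wild-type mice. None of the sources used here places its probes relative to the changed allele, so Neb does not check the genotype labels. Heterozygous mouse 1 stood apart from the other mice on the second principal component (7.59, against -3.78 to 2.40 for the other 5, with 16.1% of the variance). The markers are therefore also given without this mouse.

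None of the 9 adipocyte markers passed the test between the genotypes (limma, Benjamini-Hochberg adjusted p of 0.05 over 11544 probe sets), where 3.11% of all tested probe sets passed. With the mouse number (1 to 3 in each genotype) as a block, 1 of 9 passed, Fabp4, against 4.95% of all tested. The genotypes did not overlap at 2 of the 9, Lep (higher) and Fabp4 (lower), and 26.3% of all tested probe sets likewise did not overlap. Differences ran from -0.29 for Cidea to 0.52 for Lep, with 6 above 0, 2 below 0 and Cfd at 0.00. Their median was 0.04, and that of all tested probe sets was 0.00. In size, the median difference was 0.18 for the markers and 0.05 for all tested probe sets. In these bulk samples, more fat cells and more RNA per fat cell cannot be told apart.

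**Figure D1:**
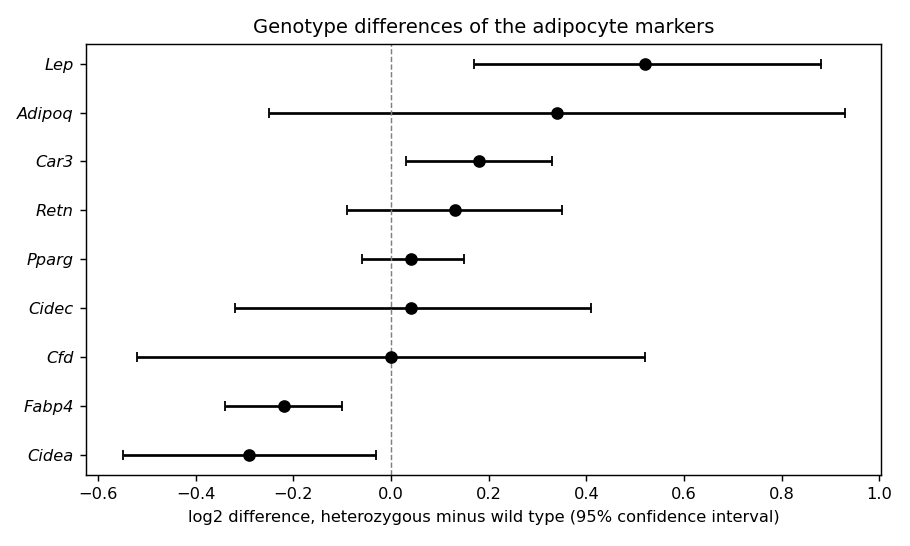
Log2 difference (horizontal axis, heterozygous minus wild type) of each of the 9 adipocyte markers, with the point at limma's estimate and bars for the 95% confidence interval, 3 mice per genotype. The markers spread from -0.29 (Cidea) to 0.52 (Lep), and the intervals of Adipoq and Cfd are the widest of the 9.

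Among the secreted products, Adipoq encodes adiponectin, the abundant adipokine that raises insulin sensitivity. It measured 10.47, 9.55 and 9.60 in heterozygous mice, against 9.76, 9.74 and 9.09 in wild-type mice. Heterozygous mouse 1 was the highest of all 6 and wild-type mouse 3 the lowest, and the other 4 lay within the overlap of the genotypes. The log2 difference was 0.34 ± 0.26 (SE; 95% confidence interval -0.25 to 0.93; adjusted p = 0.492), a 1.27-fold higher mean with an interval from 0.842-fold to 1.91-fold. Without heterozygous mouse 1 the difference was 0.04 (adjusted p = 0.916).

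Cfd encodes adipsin, the complement factor D that fat cells release. It measured 11.18, 10.60 and 10.69 in heterozygous mice, against 11.16, 11.02 and 10.28 in wild-type mice. The same 2 mice held the extremes as for Adipoq, and the genotype means were equal at 10.82 (SD 0.31 in heterozygous and 0.48 in wild-type mice, n = 3 each). The difference of 0.00 ± 0.23 (SE; adjusted p = 0.997) has a 95% confidence interval of -0.52 to 0.52, which spans ratios from 0.697-fold to 1.44-fold. It was -0.18 without heterozygous mouse 1 (adjusted p = 0.689) and -0.27 without wild-type mouse 3 (adjusted p = 0.435).

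Lep encodes leptin, the adipokine that reports fat stores to the brain. It measured 7.79, 7.14 and 7.18 in heterozygous mice, against 6.75, 6.96 and 6.83 in wild-type mice. Each heterozygous mouse lay above each wild-type mouse, and heterozygous mouse 1 lay well above the other 2 of its genotype. The log2 difference was 0.52 ± 0.16 (SE; 95% confidence interval 0.17 to 0.88), or 1.44-fold, and did not pass (adjusted p = 0.108). Without heterozygous mouse 1 the difference was smaller, at 0.31, and passed (adjusted p = 0.0347), as the spread between mice was then 0.09 in place of 0.27 (within-genotype SD). The signal of Lep ranked 8907 of 16492, which is dim on this array. Its order of mice also differed from that of Adipoq, since the lowest wild-type mouse was mouse 1 for Lep and mouse 3 for Adipoq. Wild-type mice 1 and 2 were nearly level for Adipoq (9.76 and 9.74), and the wild-type values of Lep lay close together.

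Retn encodes resistin, an adipokine made by fat cells in mice. It measured 8.47, 8.17 and 8.42 in heterozygous mice, against 8.38, 8.23 and 8.05 in wild-type mice. The genotypes overlapped, with a log2 difference of 0.13 ± 0.10 (SE; adjusted p = 0.477). Single mice moved this value, to 0.07 without heterozygous mouse 1, 0.22 without heterozygous mouse 2, 0.21 without wild-type mouse 1 and 0.05 without wild-type mouse 3, with adjusted p between 0.271 and 0.831.

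**Figure D2:**
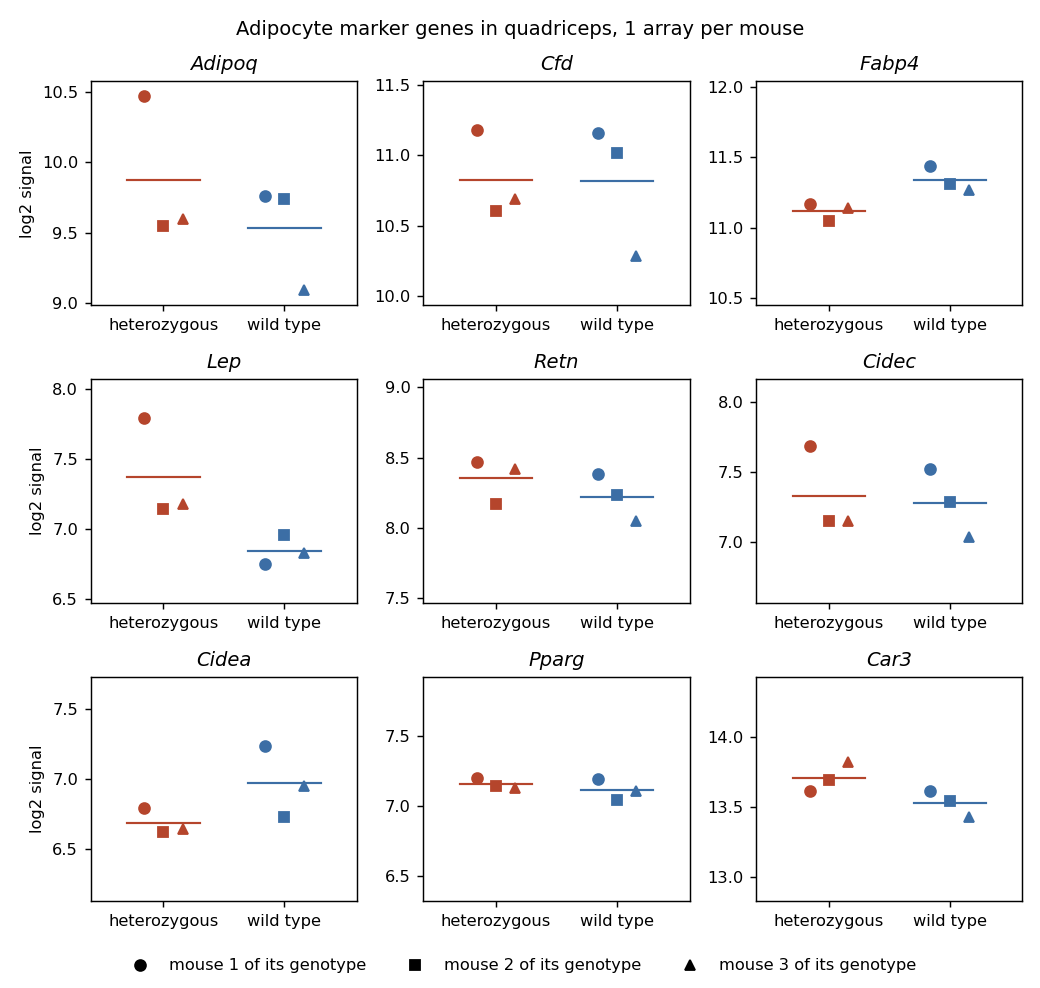
Log2 signal (vertical axis, the same span of log2 units in every panel) of the 9 adipocyte markers in each mouse, heterozygous mice at the left and wild-type mice at the right of each panel, with a line at the mean of each genotype and a symbol for the mouse number. Heterozygous mouse 1 tops Adipoq, Cfd, Lep, Retn, Cidec and Pparg, and the genotypes are apart at Lep and Fabp4.

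The promoters of Lep and Adipoq are shown because these adipokines gave the largest positive differences of the 9. Each window runs from 250 bases before to 50 after the transcription start (RefSeq, GRCm38.p6, plus strand), and 7 of the 10 listed genes had such a window. The Lep window is chr6:29059971-29060270 and the Adipoq window chr16:23146286-23146585. Capitals mark matches, on either strand, to TTGCGCAA, a palindrome that C/EBP factors bind, and to CCAAT.
Lep: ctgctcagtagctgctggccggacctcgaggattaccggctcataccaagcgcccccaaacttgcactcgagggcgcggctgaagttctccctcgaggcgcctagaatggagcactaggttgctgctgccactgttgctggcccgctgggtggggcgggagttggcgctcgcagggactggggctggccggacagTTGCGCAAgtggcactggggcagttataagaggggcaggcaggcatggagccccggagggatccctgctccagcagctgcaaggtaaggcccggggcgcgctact
Adipoq: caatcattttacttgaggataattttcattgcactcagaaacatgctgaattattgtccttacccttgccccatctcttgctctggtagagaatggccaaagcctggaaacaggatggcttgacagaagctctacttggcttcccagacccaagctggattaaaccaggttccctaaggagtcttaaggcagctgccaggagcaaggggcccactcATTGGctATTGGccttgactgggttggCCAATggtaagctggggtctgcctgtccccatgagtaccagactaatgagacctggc
TTGCGCAA was found in the Lep window, 55 to 48 bases before the start, and not in the Adipoq window. It occurs in 60 of 32851 promoter windows of this length, 0.183%. CCAAT was found in the Adipoq window at 34, 27 and 7 bases before the start, counted to the first base of each match, and it occurs in 37.4% of windows. Whether any factor was bound at these letters was not measured.

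Fabp4 encodes the fatty acid carrier protein of fat cells, which capillary endothelium also makes. It measured 11.17, 11.05 and 11.14 in heterozygous mice, against 11.44, 11.31 and 11.27 in wild-type mice. All heterozygous mice lay below all wild-type mice, with a small spread (SD 0.06 in heterozygous and 0.09 in wild-type mice, n = 3 each). The log2 difference was -0.22 ± 0.05 (SE; 95% confidence interval -0.34 to -0.10), 14.1% lower. It did not pass unpaired (adjusted p = 0.0676) and passed with the mouse number as a block (adjusted p = 0.0364). Without heterozygous mouse 1 it was -0.24 (adjusted p = 0.0605). Of 6 endothelial markers none passed, 5 had negative differences and the median was -0.12. The closest were Kdr, the main VEGF receptor (-0.25 ± 0.06, SE; adjusted p = 0.0575, and 0.0174 with the block), and Tek, the angiopoietin receptor (-0.17 ± 0.06, SE; adjusted p = 0.144). The mean endothelial signal lay between 7.86 and 8.10 in heterozygous and between 8.01 and 8.16 in wild-type mice, and its part in the Fabp4 difference was not tested.

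The lipid droplet proteins came next. Cidec, which fuses small droplets into large ones, measured 7.69, 7.15 and 7.15 in heterozygous mice, against 7.52, 7.29 and 7.04 in wild-type mice. Heterozygous mouse 1 was again highest and wild-type mouse 3 lowest, and the log2 difference was 0.04 ± 0.16 (SE; adjusted p = 0.906). Cidea, its relative that is prominent in mouse brown fat, measured 6.79, 6.62 and 6.64 in heterozygous mice, against 7.23, 6.73 and 6.95 in wild-type mice. The genotypes overlapped by a single pair of mice, and the difference of -0.29 ± 0.11 (SE; 95% confidence interval -0.55 to -0.03) did not pass (adjusted p = 0.199, and 0.0517 with the block). Without heterozygous mouse 1 the difference of Cidec was -0.14 (adjusted p = 0.542), on the other side of 0, and that of Cidea was -0.34 (adjusted p = 0.155). Cidea ranked 10864 in signal, the lowest of the 9.

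Pparg, the gene of the receptor that drives fat cell differentiation, was dim and steady. It measured 7.20, 7.14 and 7.13 in heterozygous mice, against 7.19, 7.04 and 7.11 in wild-type mice. The difference of 0.04 ± 0.05 (SE; adjusted p = 0.647) has a 95% confidence interval of -0.06 to 0.15, and was 0.02 without heterozygous mouse 1 (adjusted p = 0.851).

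Car3 encodes carbonic anhydrase 3, an enzyme abundant in fat cells and also in slow muscle fibres. It was the brightest of the 9, at rank 22 of 16492, and measured 13.61, 13.69 and 13.82 in heterozygous mice, against 13.61, 13.54 and 13.43 in wild-type mice. The genotypes met at mouse 1 of each, and the log2 difference was 0.18 ± 0.06 (SE; 95% confidence interval 0.03 to 0.33; adjusted p = 0.165), or 1.13-fold. It was 0.23 without heterozygous mouse 1 (adjusted p = 0.0887). Heterozygous mouse 1, the highest mouse for Adipoq, was the lowest of its genotype for Car3. Of 9 slow fibre genes tested, 6 rose and 3 did not pass (3.11% of all tested probe sets passed), with a median difference of 0.82. These were the slow troponin genes Tnnt1 (2.37), Tnni1 (2.40) and Tnnc1 (2.43), the slow myosin gene Myh7 (3.00) and the light chain genes Myl3 (0.60) and Myl2 (0.71), with adjusted p between 0.00145 and 0.0347. With the block 7 rose, the seventh being the calcium pump gene Atp2a2 (0.82 ± 0.19, SE; adjusted p = 0.0625, and 0.0127 with the block). The mean signal of the slow list lay between 11.19 and 11.45 in heterozygous and between 9.50 and 10.12 in wild-type mice, and its part in the Car3 difference was not tested. None of the 9 carbonic anhydrase genes tested, Car3 among them, passed over all probe sets. Car4 of capillary walls (-0.17 ± 0.04, SE; adjusted p = 0.0774, and 0.0457 with the block) and Car8 (-0.14 ± 0.04, SE; adjusted p = 0.116) came closest.

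Most of the markers varied widely between mice of 1 genotype, and Car3, Fabp4 and Pparg varied less. The within-genotype SD of Adipoq was 0.46, larger than or equal to that of 99.9% of tested probe sets, and that of Cfd was 0.40, at percentile 99.8. Cidec (0.28) and Lep (0.27) were at percentile 99.4, Cidea (0.19) at 98.4 and Retn (0.16) at 97.3. Car3 (0.10), Fabp4 (0.08) and Pparg (0.06) were at percentiles 88.9, 75 and 55.5. The median SD of all tested probe sets was 0.05. Such a spread was not particular to the adipocyte markers. Myh11 of smooth muscle (percentile 99.8), Pmp22 of nerve (99.7), the collagen gene Col3a1 (99.6) and Myh7 (100) also varied widely. Spread also differed between genes of 1 list. Of the endothelial markers, Pecam1 was at percentile 79.2 and Vwf at 99.4. Of the fibroblast-type genes, Pdgfra was at percentile 66 and Col1a1 at 99.1. Without heterozygous mouse 1 the SD was 0.31 for Adipoq (percentile 99.7) and 0.39 for Cfd (percentile 99.8), whereas Lep was then at percentile 84.9.

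**Figure D3:**
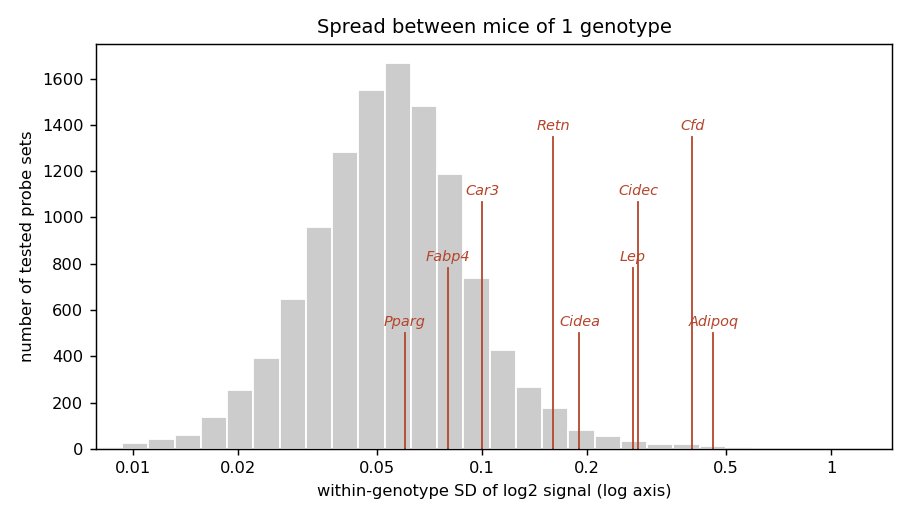
Histogram of the within-genotype SD of log2 signal (horizontal log axis) over the tested probe sets (vertical axis, number of probe sets), with a vertical line at each of the 9 adipocyte markers, whose heights only separate the names. Pparg at 0.06 lies near the centre, and Adipoq at 0.46 and Cfd at 0.40 lie in the far right tail.

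The mice also came in a recurrent order. The features of it counted here were not planned and were chosen after the values of these markers were seen. Their counts and the shares beside them are therefore a description and carry no test. Heterozygous mouse 1 was the highest of its genotype at 8 of the 9 markers, Car3 being the exception, against 34.2% of all tested probe sets. Wild-type mouse 1 was the highest of its genotype at 8 of 9, Lep being the exception, against 32.1%, and wild-type mouse 3 the lowest at 6 of 9, against 30.9%. Both extremes, heterozygous mouse 1 on top and wild-type mouse 3 at the bottom, met at 5 of 9 markers (Adipoq, Cfd, Fabp4, Retn and Cidec), against 10.5% of all tested probe sets.

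The nerve and smooth muscle markers shared these 2 extremes. All 3 nerve markers measured (Mbp, Mal and Pmp22) and all 4 smooth muscle markers were highest in heterozygous mouse 1 and lowest in wild-type mouse 3 within their genotypes. Wild-type mouse 1 was the highest of its genotype at all 4 smooth muscle markers but at 0 of 3 nerve markers, unlike most adipocyte markers for nerve. The mean nerve signal was 9.19 in heterozygous mouse 1, between 8.66 and 8.69 in the other heterozygous mice and between 8.29 and 8.68 in wild-type mice, and that of smooth muscle was 8.91 in heterozygous mouse 1, 8.28 and 8.54 in the other heterozygous mice and between 8.25 and 8.69 in wild-type mice. None of these genes passed between the genotypes, the smallest p being those of Mbp (0.37 ± 0.13, SE; adjusted p = 0.147) and Mal (0.29 ± 0.12, SE; adjusted p = 0.236) for nerve, and of Tagln (0.18 ± 0.16) and Acta2 (0.19 ± 0.18) for smooth muscle. Other lists shared the features of the adipocyte order to differing degrees. Heterozygous mouse 1 was the highest of its genotype at 5 of 6 endothelial markers, 0 of 9 fibro-adipogenic progenitor and fibroblast genes, 1 of 5 leukocyte markers, 1 of 4 mammary or skin genes and not at the single red cell marker. Wild-type mouse 3 was the lowest of its genotype at 4 of 6, 8 of 9, 3 of 5 and 2 of 4 of these, and at the red cell marker. Wild-type mouse 1 was the highest at 5 of 6, 3 of 9, 3 of 5 and 1 of 4, and not at the red cell marker. For lipid genes shared by fat and muscle, the 3 counts in this sequence were 10, 4 and 9 of 15. For slow fibre genes they were 6, 0 and 6 of 9. They were 5, 5 and 5 of 11 for adipogenic transcription factors and 2, 4 and 6 of 15 for carbonic anhydrases. Brown and beige fat genes gave 4, 2 and 3 of 10, and adipokine receptors 1, 2 and 1 of 4. The skeletal muscle genes held tied values and are left out. The part of any of these lists in the order of the adipocyte markers was not tested.

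**Figure D4:**
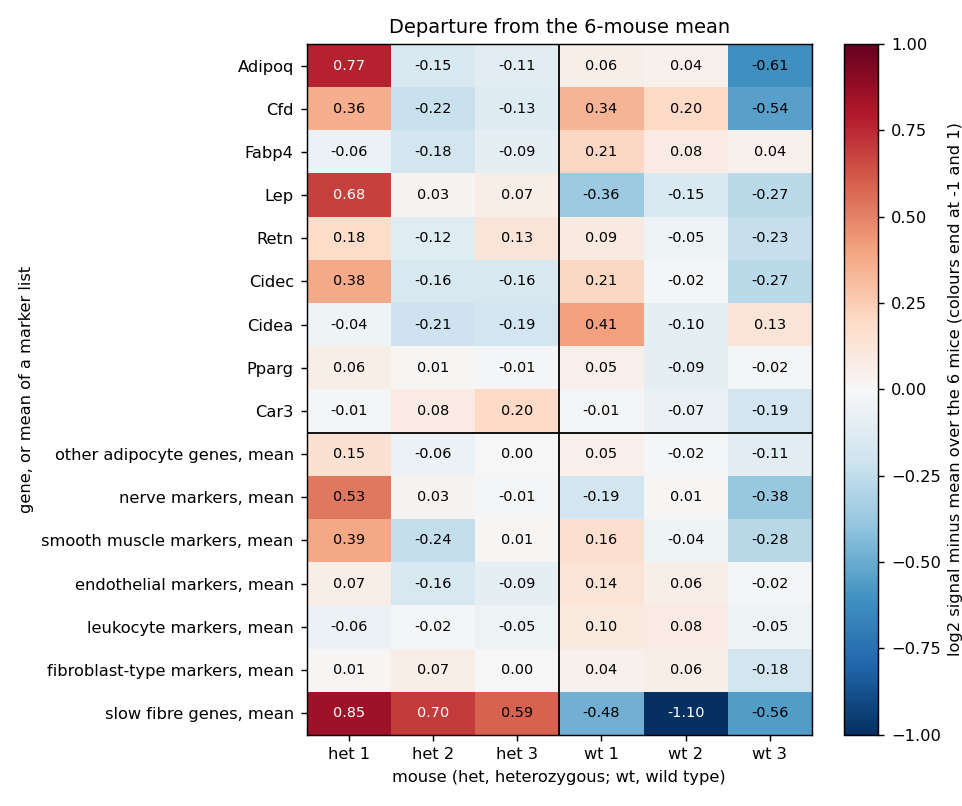
Log2 signal minus the mean over the 6 mice (colour and printed value), for each adipocyte marker and for the mean of 7 marker lists (rows), in heterozygous mice 1 to 3 and then wild-type mice 1 to 3 (columns). Adipoq, Cfd and Cidec share a high heterozygous mouse 1 and a low wild-type mouse 3 with the nerve and smooth muscle lists, and the slow fibre list separates the genotypes.

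The 5 genes with the profile most like that of Adipoq over the 6 mice were Hp (haptoglobin), Pmp22 (a myelin protein of peripheral nerve), Tagln (a smooth muscle actin-binding protein), Trf (transferrin) and Htra1 (a secreted serine protease). Their root mean square distance from the Adipoq profile, each profile centred on its mean, was 0.11 for Hp, 0.14 for Pmp22, 0.18 for Tagln, 0.19 for Trf and 0.21 for Htra1, against 0.41 for a flat profile. Hp measured 9.42, 8.50 and 8.47 in heterozygous mice, against 8.55, 8.88 and 7.93 in wild-type mice. For Car3 the nearest profiles were those of Frat2, Nfyb, Map1lc3a, Ivd and 6430571L13Rik, at distances of 0.03 to 0.04 against 0.12 for a flat profile. These likenesses describe 6 arrays and carry no test.

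A further list of 20 adipocyte genes, chosen as little used by muscle fibres, gave 18 that were tested. Of these 1 fell, none rose and 17 did not pass, with a median difference of 0.07. The share of all tested probe sets that passed, 3.11%, belongs beside this count and those of the lists that follow. The fall was Aqp7, the glycerol channel of fat cells, at 6.92, 6.81 and 6.94 in heterozygous mice, against 7.36, 7.16 and 7.20 in wild-type mice (-0.35 ± 0.06, SE; adjusted p = 0.0236). Adig, a small adipogenesis-related gene, had a difference of -0.31 ± 0.11 (SE; adjusted p = 0.157) and passed with the block (adjusted p = 0.0079). Heterozygous mouse 1 was the highest of its genotype at 14 of the 19 measured and wild-type mouse 3 the lowest at 12 of the 19. Use of these genes by the fibres was not measured, so the list cannot be taken as a measure of fat alone.

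Lipid genes that fat and muscle share showed 2 falls, no rise and 13 that did not pass of 15 tested, with a median of -0.05. Plin5, the droplet coat protein of oxidative tissue, fell by 0.70 on the log2 scale (SE 0.12; adjusted p = 0.0267), and Cd36, the fatty acid transporter, fell by 0.48 (SE 0.09; adjusted p = 0.0317). Of 10 adipogenic transcription factor genes tested 2 rose and 8 did not pass. Cebpd rose by 1.57 ± 0.22 and Cebpb by 0.92 ± 0.10 (SE; adjusted p = 0.0125 and 0.0066), and both are also expressed outside fat. Cebpb measured 10.07, 10.29 and 10.49 in heterozygous mice, against 9.26, 9.46 and 9.40 in wild-type mice, so that heterozygous mouse 1, the highest for Lep and Adipoq, was the lowest of its genotype here.

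None of the 5 brown and beige fat genes tested passed, with Tbx1 at -0.23 ± 0.06 (SE; adjusted p = 0.0803) and Zic1 at -0.56 ± 0.21 (SE; adjusted p = 0.181, and 0.0329 with the block). Ucp1, the uncoupling protein that defines brown fat, was under the filter at 6.44 to 6.58 in heterozygous and 6.50 to 6.57 in wild-type mice. No adipokine receptor gene passed of 3 tested, Cdh13, a receptor of adiponectin, being closest (0.15 ± 0.05, SE; adjusted p = 0.135), while the leptin receptor gene Lepr was under the filter (-0.02). No fibro-adipogenic progenitor or fibroblast gene passed of 8 tested, with Col1a1 at 0.39 ± 0.14 (SE; adjusted p = 0.157) and Dlk1 under the filter at 0.11. Leukocyte markers gave no call of 4 tested, with Adgre1 at -0.12 and Itgam, under the filter, at -0.15. The red cell marker Alas2 had a difference of 0.19 ± 0.19 (SE; adjusted p = 0.617). Among 8 skeletal muscle genes none passed, Myh4 (-0.26) and Myh1 (-0.18) having the smallest p. Acta1 stood at the top of the shared distribution in every mouse, so a rise in it could not show. Of 2 mammary or skin genes tested neither passed, with Krt18 at 0.13 and Csn2, under the filter, at 0.06.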

How the data were processed

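RNA was measured on 6 arrays. Trizol and column isolation and biotin labelling by the Affymetrix procedure are as per the labels' protocols. The authors' deposited log2 values had identical sorted columns on all arrays, as quantile normalization leaves them. No source used here gives the summarising software, background correction or detection calls. Row names are Entrez identifiers, and 15253 of 16492 gene probe sets that the platform annotation lists, or that are members, were named through RefSeq (GRCm38.p6), Cfd by its identifier alone. One list gene is not reported here.

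The 11544 probe sets with a mean above the 30th percentile (6.74) were tested with limma 3.58.1 (R 4.3.3), heterozygous minus wild type, at a Benjamini-Hochberg adjusted p of 0.05 over all of them. Genes under the filter were taken from a fit of all gene probe sets. The fit was tested on simulated data. Having 3 arrays per genotype limits the precision.

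The members, 16 gene lists and naming rules were chosen with earlier results of these data known. The rule named all members, in each list the 2 genes with the smallest p and any that passed, and the 5 profiles nearest to Adipoq and Car3. Neb, Acta1, Ckm, Ucp1, Myh11, Col3a1, Pecam1, Vwf and Pdgfra were named outside this rule, after their values were seen. Deviations of same-numbered mice from their genotype means correlated at 0.187, 0.234 and 0.129, above the pairing limit of 0.1, though the labels do not tie the numbers to a litter or day. A blocked fit is quoted beside each result whose call it alters. The alternatives were other filters, normalizations, variance models and leaving out each mouse.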

Additional observations from a re-analysis of the deposited data

How the results depend on the processing

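Filters on dim probe sets, cyclic loess, centring on bright probe sets, an intensity trend, array weights, the mouse number as a block and leaving out each mouse in turn were tried. The count of probe sets that passed was 359, and 572 with the replicate block. It was 503, 121 and 84 without heterozygous mouse 1, 2 and 3, and 97, 103 and 143 without wild-type mouse 1, 2 and 3, a range of 84 to 503. The count of adipocyte markers that passed was 0, and 1 with the replicate block (Fabp4). With single mice left out it ranged from 0 to 1, the 1 being Lep without heterozygous mouse 1 (log2 difference 0.31, adjusted p = 0.0347). With array weights Cfd was at -0.08 and Cidec at -0.012, on the other side of 0, and leaving out a mouse moved Cfd between -0.27 and 0.17 and Cidec between -0.14 and 0.16. The other 7 markers kept their direction in all the settings that measured them, Adipoq between 0.04 and 0.50 and Fabp4 between -0.25 and -0.17 without a mouse. The stricter filter left out Lep, Cidea and Pparg. Leaving out each mouse, chosen for the spread after seeing the data, kept the median SD percentile of the markers between 96.4 and 98.9. The block changed no other call of the 9. The cause of these shifts was not tested. Background correction could not be varied from summarised values, and dim probe sets near 7 on the log2 scale limit what Lep, Cidea and Pparg can show.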
